A study of Mus musculus with 9 samples.

Results

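The genes described here are 10 temperature-responsive genes measured by RNA-seq in the mouse sublingual gland, a mucous salivary gland under the tongue. They comprise 8 heat shock chaperone genes (Hspa1a, Hspa1b, Hsph1, Hspa8, Hsp90aa1, Hsp90ab1, Dnajb1 and Hspb1) and the 2 cold-inducible RNA-binding protein genes Cirbp and Rbm3. They were chosen by name, as targets of heat shock factors and as genes that follow body temperature. All 10 are among the 54532 genes of the count tables, and all 10 were among the 15348 genes left by a filter on low counts. The 9 libraries came from glands of WT genotype: 3 controls without radiation, 3 taken 7 days after 10 Gy and 3 taken 14 days after 10 Gy. The sources used here do not give the strain, age or sex of the mice or the hour of collection. RNA of each library came from 4 sections of 50 µm per gland. Separate animals are not stated for the replicates, and p-values therefore measure the spread among these libraries alone, which may be technical.

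Heat shock factor 1 is a transcription factor held inactive by chaperones. When unfolded proteins draw the chaperones away, it binds heat shock elements, runs of inverted GAA units, and switches on chaperone genes. HSP70 proteins (Hspa1a, Hspa1b, Hspa8) bind exposed stretches of unfolded proteins, J-domain proteins such as Dnajb1 deliver the clients, Hsph1 exchanges the nucleotide, HSP90 proteins (Hsp90aa1, Hsp90ab1) mature kinases and receptors, and Hspb1 is a small heat shock protein that holds unfolded clients. Hspa8 and Hsp90ab1 are the constitutive forms, whereas Hspa1a, Hspa1b and Hsp90aa1 are the more inducible ones. Cirbp and Rbm3 are small glycine-rich RNA-binding proteins whose transcripts rise on mild cooling and which follow the daily rhythm of body temperature.

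Libraries held 15962399 to 19441239 counts each. Levels are given as CPM, the count relative to the TMM-normalised library total, and 3 counts in a library came to 0.159 to 0.202 CPM. The tissue label was checked against acinar markers: Muc19, the gel-forming mucin of the gland, lay between 30293 and 46253 CPM and the water channel Aqp5 between 1080 and 1526 CPM in all 9 libraries, whereas Bpifb2 was at or below 0.905 CPM. Control replicate 3 stood apart from the other libraries on the third principal component of log2 CPM, at −41.6. Its submandibular duct markers summed to 298 CPM against 38.4 and 45.1 CPM in the other controls. Those of day 14 replicate 2 summed to 85.3 CPM against 32.6 and 34.9 CPM in the other day 14 libraries. In bulk tissue, fewer cells of a type and less RNA per cell cannot be told apart.

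The sequence before the transcription start is shown for the genes whose 250 upstream bases held a searched motif of the heat or cold response, to show how these letters lie in the inducible pair Hspa1a and Hspa1b and in their relatives. The sequences are from RefSeq on GRCm38.p6, in which 6 of the 10 genes had an entry, and positions count back from the RefSeq start. Hsph1, Dnajb1 and Cirbp had 2 starts there, and the first of each is used. That of Cirbp lies 1854 bases inside the gene as given by GENCODE M21. Capitals mark an inverted repeat of the heat shock element (GAANNTTC or TTCNNGAA, each the same on both strands) or the mild cold response element TCCCCGCC on either strand.
Hspa1a, chr17:34972217-34972296, minus strand: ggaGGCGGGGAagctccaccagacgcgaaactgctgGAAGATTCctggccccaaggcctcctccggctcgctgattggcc
Hspa1b, chr17:34959299-34959378, minus strand: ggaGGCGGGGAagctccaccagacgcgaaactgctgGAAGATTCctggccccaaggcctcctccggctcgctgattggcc
Hsph1, chr5:149636357-149636416, minus strand: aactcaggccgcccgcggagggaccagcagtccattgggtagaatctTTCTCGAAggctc
Hspb1, chr5:135887779-135887838, plus strand: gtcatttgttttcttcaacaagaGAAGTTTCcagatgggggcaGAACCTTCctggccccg
Cirbp, chr10:80167589-80167648, plus strand: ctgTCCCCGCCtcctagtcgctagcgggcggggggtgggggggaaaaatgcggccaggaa

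The windows of Hspa1a and Hspa1b were identical over the 80 bases shown, and 247 of their 250 upstream bases (98.8%) matched, with 3 mismatches. Their inverted repeat spanned bases −104 to −97, that of Hsph1 spanned −33 to −26, and Hspb1 had a repeat at −117 to −110 and another at −97 to −90. Counted from the second Hsph1 start, its repeat spanned −54 to −47. In the Hsph1 window, 20 of the 60 bases are exonic in GENCODE M21. Either inverted repeat was present in 12.8% of 32851 RefSeq promoter windows of 250 bases (GAANNTTC in 6.69% and TTCNNGAA in 7.17%), and 3 alternating units, GAANNTTCNNGAA, in 0.466%. TCCCCGCC, found in Cirbp at −247 to −240 and on the other strand in both Hspa1 genes, was present in 4.64% of windows, and CCAAT in 33.8%. The window before the second Cirbp start held no TCCCCGCC. The upstream 250 bases of Dnajb1 held CCAAT on the other strand at −151 to −147 and no match to either inverted repeat. None of these matches overlapped another motif searched. A match describes the letters and does not show that a factor binds there.

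At day 7, 1 of the 10 genes was higher than in controls at an adjusted p under 0.05 in edgeR's quasi-likelihood test (Rbm3) and 3 were lower (Hspa8, Hsp90ab1 and Hspb1). Of all 15348 genes tested, 15.8% were called higher and 14.8% lower in that comparison, and the 4 calls among 10 genes are to be read beside these shares. The median log2 fold change of the 10 genes was −0.23, and that of all genes 0.02. Libraries of day 7 and control did not overlap for 5 of the 10 genes (2 higher and 3 lower), beside 43.9% of all genes. At day 14, edgeR called 0 of 10 genes against the same controls, beside 1.13% of all genes called higher and 0.632% called lower. The unadjusted p was under 0.05 for 1 of the 10, Rbm3. DESeq2 called 0 of the 10, and limma-voom with sample weights called Rbm3 (adjusted p = 0.0402). Libraries of day 14 and control did not overlap for 2 of 10 genes, beside 23.1% of all genes.

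**Figure D1:**
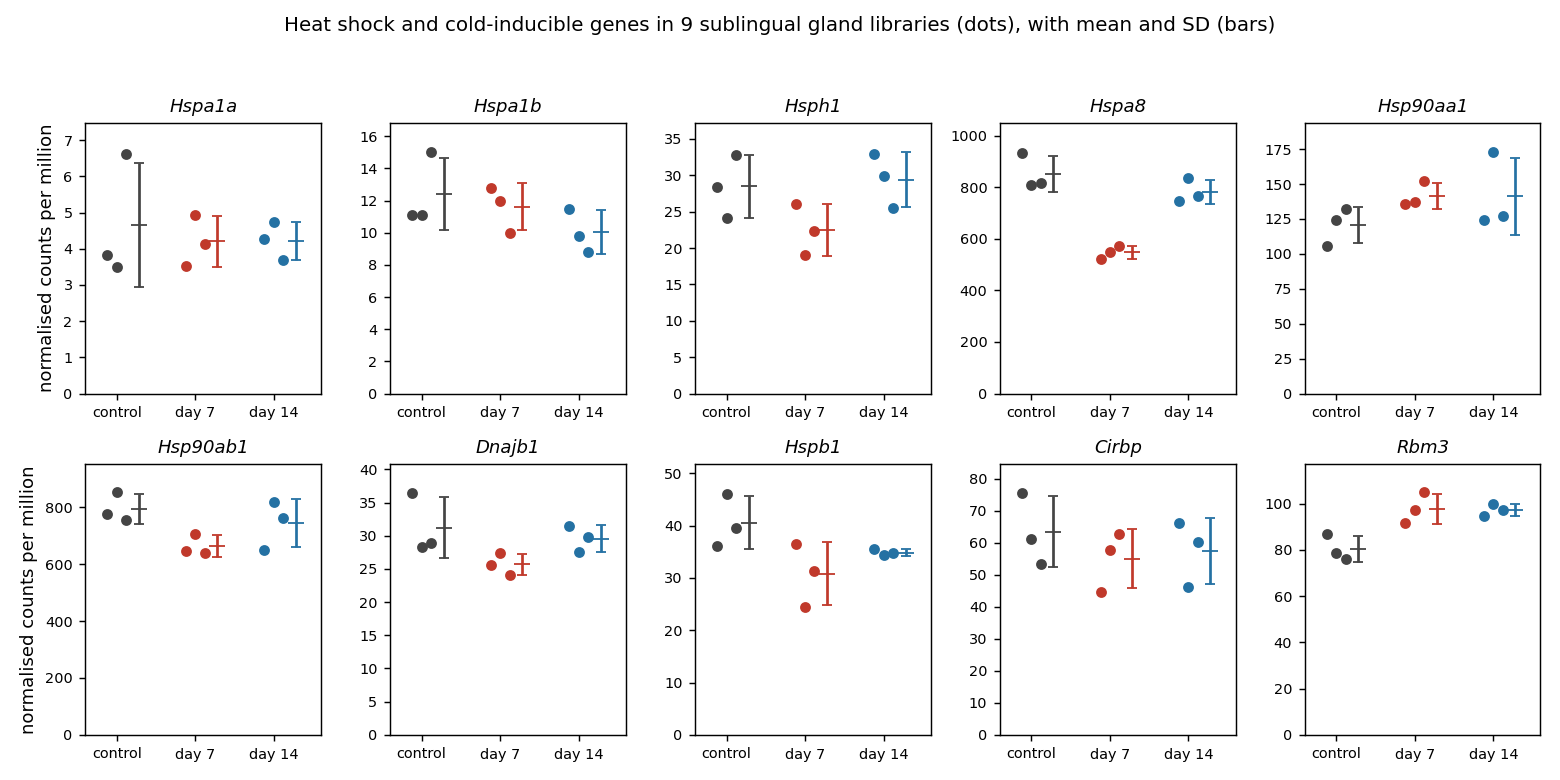
Normalised CPM (vertical axes, each starting at 0) of the 10 genes in the 3 libraries of each group (dots), with the mean and SD of each group (bars). Hspa8 lay between 522 and 572 at day 7, below all 6 other libraries, and Rbm3 lay at or above 91.5 in all 6 irradiated libraries against at most 86.8 in controls.

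Hspa8 encodes Hsc70, the constitutive cytosolic HSP70 that folds new proteins and strips clathrin from vesicles (ENSMUSG00000015656, chr9:40800984-40810087 on GRCm38, plus strand, protein coding). Its CPM were 934, 807 and 815 in the controls, 522, 550 and 572 at day 7, and 748, 834 and 764 at day 14. The day 7 libraries were all below every other library, and the day 14 libraries overlapped the controls. Hspa8 fell from 852 ± 70.9 CPM to 548 ± 24.7 CPM (mean ± SD, n = 3), a log2 fold change of −0.64 (SE 0.090, edgeR adjusted p = 7.1e-05), which is 35.6% lower. At day 14 its mean was 782 ± 45.8 CPM, and the change against control was −0.12 (SE 0.090, edgeR adjusted p = 0.451). Tested directly, Hspa8 was higher at day 14 than at day 7 by 0.51 (SE 0.090, edgeR adjusted p = 0.0023). In that comparison, 3.72% of all genes were called higher and 2.87% lower, and Hspa8 was the 1 gene of the 10 that was called. Both calls held in all 23 alternatives run, with log2 values of −0.80 to −0.57 for day 7 against control and 0.45 to 0.55 for day 14 against day 7. Of the runs of 100 bases in its transcripts, 28.2% also occur in other genes, its processed pseudogenes, whose counts in the tables came to at most 0.194% of those of Hspa8.

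Hspa1a and Hspa1b encode near-identical stress-inducible HSP70 proteins and lie near each other on the minus strand of chromosome 17 (ENSMUSG00000091971, chr17:34969190-34972156, and ENSMUSG00000090877, chr17:34956436-34959238). Hspa1a was at 3.84, 3.51 and 6.62 CPM in controls, 3.53, 4.94 and 4.14 CPM at day 7 and 4.27, 4.73 and 3.68 CPM at day 14. Hspa1b was at 11.1, 11.1 and 15 CPM in controls, 12.8, 12 and 10 CPM at day 7 and 11.5, 9.77 and 8.83 CPM at day 14. For both genes the highest of the 9 libraries was control replicate 3, and all groups overlapped. Against control, the log2 changes at day 7 were −0.15 (SE 0.275) for Hspa1a and −0.10 (SE 0.176) for Hspa1b, with an edgeR adjusted p of 0.716 for each. Without control replicate 3 they were 0.17 and 0.04. At day 14 they were −0.14 and −0.31 (edgeR adjusted p = 0.807 and 0.329). Hspa1a rested on 52 to 117 counts a library and Hspa1b on 163 to 265, the lowest counts among the 10 genes. Their split is uncertain, since 48.6% of the 100-base runs of Hspa1a and 49.9% of those of Hspa1b also occur in other genes, mostly in each other. With the counts of both summed, the changes were −0.11 at day 7 and −0.26 at day 14 (edgeR adjusted p = 0.649 and 0.381). This sum leaves out Hspa1l, which shares some of the runs and had 2 to 12 counts a library. These came to at most 18.5% of the counts of Hspa1a and 5.52% of those of Hspa1b.

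Hsph1 encodes HSP110, a nucleotide exchange factor of HSP70 (ENSMUSG00000029657, chr5:149614287-149636376, minus strand). Its CPM were 28.4, 24.2 and 32.8 in controls, 26.1, 19 and 22.4 at day 7, and 32.9, 29.9 and 25.5 at day 14. Day 7 libraries lay low, but replicate 1 was above control replicate 2. The change at day 7 was −0.34 (SE 0.147, edgeR adjusted p = 0.0842). It passed the threshold when the fit was corrected for exonic length and GC content (−0.60, edgeR adjusted p = 0.0021). It also passed without control replicate 2 (−0.46) and without day 7 replicate 1 (−0.46). At day 14 the change against control was 0.04, and day 14 exceeded day 7 by 0.39 (edgeR adjusted p = 0.116), which was 0.49 after the length and GC correction (adjusted p = 0.0307).

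Dnajb1, the main cytosolic J-domain partner of stress HSP70 (ENSMUSG00000005483, chr8:83608193-83612653, plus strand), was at 36.5, 28.3 and 28.9 CPM in controls. It was at 25.6, 27.4 and 24.1 CPM at day 7 and at 31.5, 27.5 and 29.8 CPM at day 14. All day 7 libraries were below all controls, and below all day 14 libraries. The change at day 7 was −0.28 (SE 0.125, edgeR adjusted p = 0.0974) and did not pass the threshold. Without control replicate 3 it was −0.36 (edgeR adjusted p = 0.0462). Between day 14 and day 7, libraries of 2 of the 10 genes did not overlap, Hspa8 and Dnajb1, beside 29.4% of all genes.

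Hsp90ab1 encodes the constitutive cytosolic HSP90 beta (ENSMUSG00000023944, chr17:45567775-45573271, minus strand). Its CPM were 776, 855 and 755 in controls, 647, 707 and 638 at day 7, and 651, 819 and 764 at day 14. The day 7 libraries were all below the controls, while day 14 replicate 1 lay among the day 7 libraries. The fall at day 7 was −0.26 (SE 0.097, edgeR adjusted p = 0.0485). This call sat at the threshold and was lost in 11 of 23 alternatives, among them the fits without control replicate 1 or 2, without any of the day 7 replicates, without day 14 replicate 3, and with the length and GC correction (−0.17, adjusted p = 0.28). Its value stayed below 0 in all of them.

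Hsp90aa1 encodes the inducible HSP90 alpha (ENSMUSG00000021270, chr12:110690605-110702728, minus strand). Its CPM were 106, 124 and 132 in controls, 136, 137 and 152 at day 7, and 124, 173 and 127 at day 14. All day 7 libraries were above the controls, by 0.23 on the log2 scale (SE 0.119, edgeR adjusted p = 0.155), which did not pass the threshold. This value was 0.05 with the length and GC correction, −0.02 with the GC correction alone and 0.14 without control replicate 1. The change at day 14 was also 0.23 (edgeR adjusted p = 0.286). Day 14 replicate 2 was the highest of the 9 libraries, and without it the day 14 change was 0.03. Of its 100-base runs, 38.0% occur in pseudogenes whose counts came to at most 0.726% of its own.

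The ratio of Hsp90aa1 to Hsp90ab1 counts, inducible over constitutive HSP90, was 0.137, 0.145 and 0.174 in controls, 0.21, 0.194 and 0.239 at day 7 and 0.19, 0.211 and 0.166 at day 14. Every day 7 library was above every control, and day 14 overlapped both groups. The exact two-sided permutation test gave p = 0.1 for day 7, the smallest p that 3 against 3 libraries allow, and p = 0.2 for day 14. The difference of the fitted log2 changes was 0.49 at day 7, or 0.22 with the length and GC correction. The ratio of Hspa8 to Hsp90ab1 was 1.2, 0.944 and 1.08 in controls and 0.807, 0.778 and 0.896 at day 7, with no overlap (exact two-sided permutation p = 0.1). Hsp90ab1 thus had more counts than Hspa8 in all 3 day 7 libraries and in 1 of 3 controls. At day 14 that ratio was 1.15, 1.02 and 1, overlapping the controls.

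**Figure D2:**
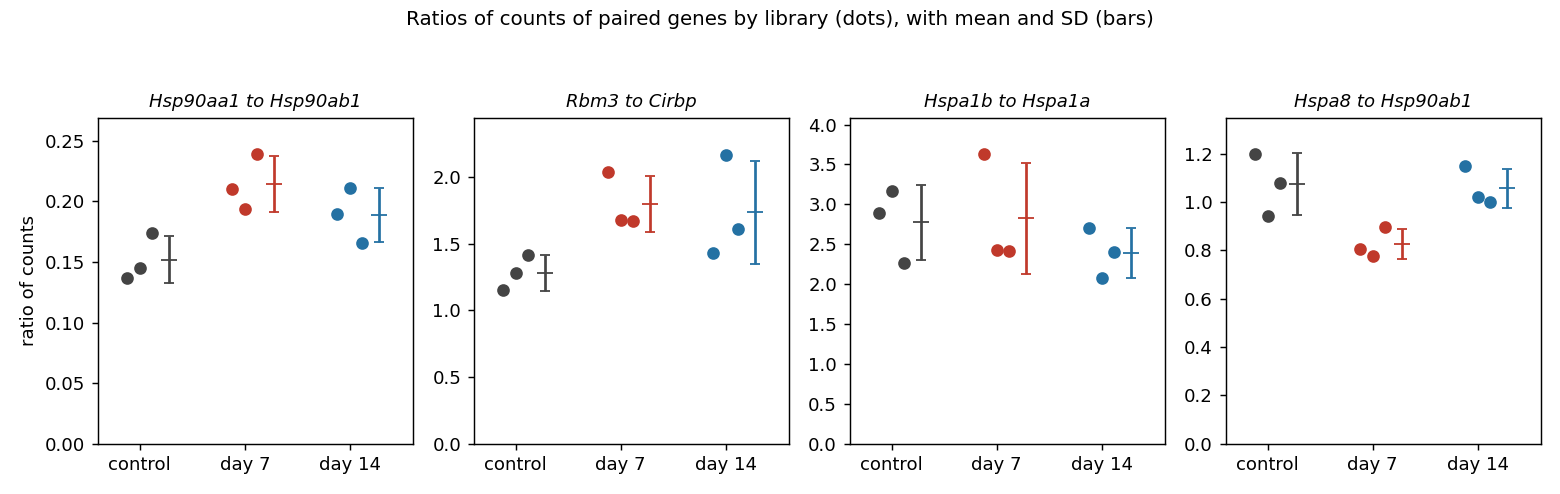
Ratios of raw counts (vertical axes, starting at 0) for 4 gene pairs in each library (dots), with the mean and SD of 3 libraries (bars). The ratio of Hsp90aa1 to Hsp90ab1 was at most 0.174 in controls and at least 0.194 at day 7, and the ratio of Rbm3 to Cirbp was at most 1.42 in controls and at least 1.67 at day 7.

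Hspb1 encodes HSP25 (HSP27 in humans), a small heat shock protein that also binds actin filaments (ENSMUSG00000004951, chr5:135887919-135889563, plus strand). Its CPM were 36.1, 46 and 39.5 in controls, 36.4, 24.5 and 31.4 at day 7, and 35.5, 34.3 and 34.8 at day 14. Day 7 replicate 1 lay within the control range, and the 3 day 14 libraries lay close together just below the lowest control. Hspb1 fell at day 7 by 0.40 on the log2 scale (SE 0.133, edgeR adjusted p = 0.0302). The call was lost without control replicate 2 (−0.31), without day 7 replicate 2 (−0.26) or 3 (−0.41), and with the length and GC correction, under which the value was −0.02 (adjusted p = 0.949). At day 14 the change was −0.22 (edgeR adjusted p = 0.36). Of its 100-base runs, 44.0% occur in the pseudogene Hsp25-ps1, which had at most 2 counts in a library.

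Rbm3 encodes an RNA-binding protein that supports translation and synapse repair in the cold (ENSMUSG00000031167, chrX:8138975-8145880, minus strand). Its CPM were 86.8, 78.7 and 75.9 in controls, 91.5, 97.2 and 105 at day 7, and 94.5, 100 and 97.1 at day 14. All 6 irradiated libraries were above all 3 controls. Rbm3 rose at day 7 from 80.5 ± 5.69 to 97.7 ± 6.58 CPM (mean ± SD, n = 3), a change of 0.28 (SE 0.092, edgeR adjusted p = 0.0266), or 21.5% higher. At day 14 the change was of like size, 0.27 (SE 0.092), with an edgeR adjusted p of 0.101. The day 7 call was lost with only the 6 libraries compared (adjusted p = 0.0509) and without control replicate 2 (0.25) or 3 (0.22) or day 7 replicate 2 (0.28) or 3 (0.23). The day 7 value with the length and GC correction was −0.05 (adjusted p = 0.772). The day 14 value ran from −0.00013 to 0.32 over all 23 alternatives, and from 0.20 to 0.32 with a library left out. The antisense gene Rbm3os, which overlaps 94 bases of Rbm3 on the other strand, had 1 to 8 counts a library.

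Cirbp encodes the cold-inducible relative of Rbm3, which also rises after ultraviolet damage (ENSMUSG00000045193, chr10:80165985-80172786, plus strand). Its CPM were 75.4, 61.3 and 53.5 in controls, 44.7, 57.7 and 62.7 at day 7, and 66.2, 46.1 and 60.1 at day 14. All 3 groups overlapped, and each spread widely around its mean. The changes were −0.20 at day 7 (SE 0.156, edgeR adjusted p = 0.358) and −0.14 at day 14 (SE 0.156, edgeR adjusted p = 0.645). With a library left out they ran from −0.33 (without control replicate 3) to −0.06 (without control replicate 1) at day 7 and, without the same 2 libraries, from −0.28 to −0.01 at day 14. With the length and GC correction both were −0.04. The ratio of Rbm3 to Cirbp counts was 1.15, 1.28 and 1.42 in controls, 2.04, 1.68 and 1.67 at day 7 and 1.43, 2.17 and 1.61 at day 14. All irradiated libraries were above all controls, with an exact two-sided permutation p = 0.1 at each time, the smallest the design allows. The difference of the fitted log2 changes at day 7 was 0.48, and −0.02 after the length and GC correction. At day 14 it was 0.41, and 0.05 to 0.55 over all alternatives.

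**Figure D3:**
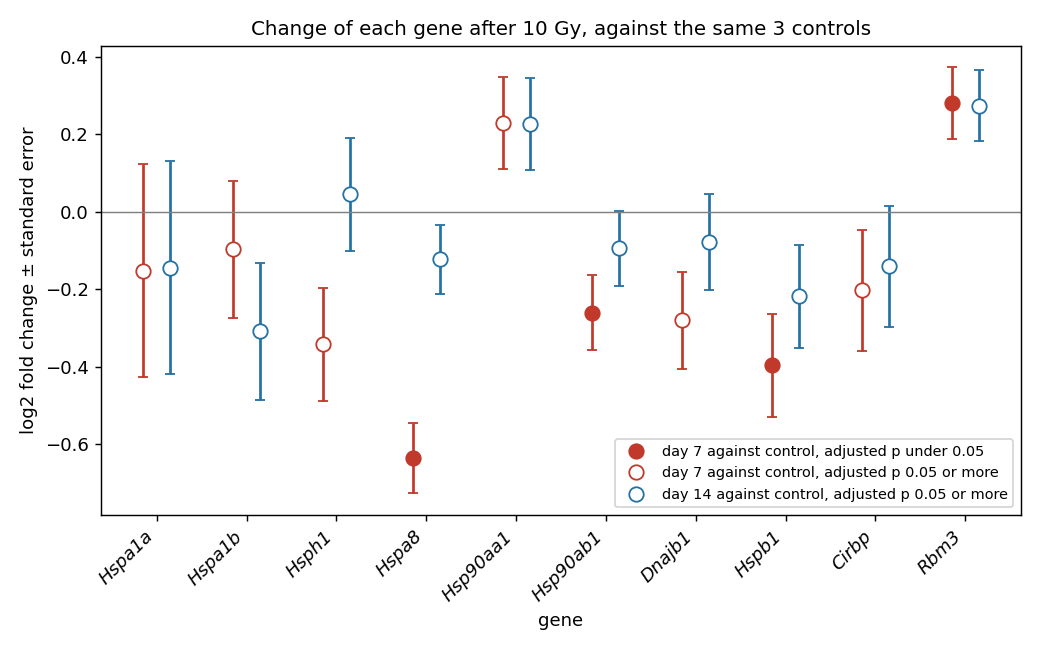
Log2 fold change with its standard error (vertical axis) of each of the 10 genes at day 7 and day 14 against the same 3 controls, filled where the edgeR adjusted p was under 0.05. At day 7, 4 genes were called (Hspa8 −0.64, Hspb1 −0.40, Hsp90ab1 −0.26 and Rbm3 0.28), and no symbol is filled at day 14.

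Levels were set side by side per kilobase of exon, with all annotated exons of a gene counted in its length. The order depends on that length. Not divided by it, control means were 852 CPM for Hspa8 and 795 for Hsp90ab1, with overlapping libraries, and 80.5 for Rbm3 and 63.4 for Cirbp. Of the 100-base runs of Hsp90ab1, 0.0% also occur in other genes, against 28.2% for Hspa8. How reads that match several genes were counted is not known here, and its part in the order of genes was not tested. In controls Hsp90ab1 was the highest at 265 ± 17.7 CPM per kb and Hspa8 followed at 198 ± 16.5 (mean ± SD, n = 3), with no overlap between them. Hspb1 (39.3 ± 4.88), Hsp90aa1 (30.7 ± 3.29) and Cirbp (24.3 ± 4.26) came next, and the libraries of Hsp90aa1 and Cirbp overlapped. Rbm3 stood at 17.1 ± 1.21 and Dnajb1 at 9.74 ± 1.42. The lowest were Hspa1b (4.43 ± 0.798) and Hsph1 (3.92 ± 0.587), which overlapped, and Hspa1a (1.57 ± 0.575). At day 7 Hsp90ab1 and Hspa8 stood further apart, at 221 ± 12.5 and 127 ± 5.74 CPM per kb, and Hsp90aa1 and Hspb1 had changed places at 36.0 ± 2.38 and 29.8 ± 5.81, with overlapping libraries. By mean CPM over all 9 libraries, not divided by length, the 2 constitutive chaperones ranked 79 (Hsp90ab1) and 81 (Hspa8) of 15348 genes. Hspa1a ranked 10783.

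Changes in these libraries moved with exonic length and base composition. Length counted all annotated exons of a gene, and GC content was that of its longest annotated transcript, which need not be the one expressed here. Across 15343 genes, the log2 change at day 7 against control had a Spearman correlation of 0.423 with exonic length and, across genes, of −0.307 with GC content, and genes are not independent replicates. The 10% of genes lowest in GC content had a median day 7 change of 0.31 and the 10% highest −0.22. For day 14 against control the correlations were 0.336 with length and −0.344 with GC content. Hspb1 lay at the 98.1st percentile of GC content and the 6.25th of length, Rbm3 at the 10.8th percentile of GC content, Hsph1 at the 80.3rd of length, and Hspa8 at the 30.0th of GC content and 52.8th of length. With each library corrected for both, Hspa8 (−0.79) and Hsph1 (−0.60) were the members called at day 7. Of all calls at day 7, 51.6% were higher, and 33.2% after the correction. The source of these trends was not tested.

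**Figure D4:**
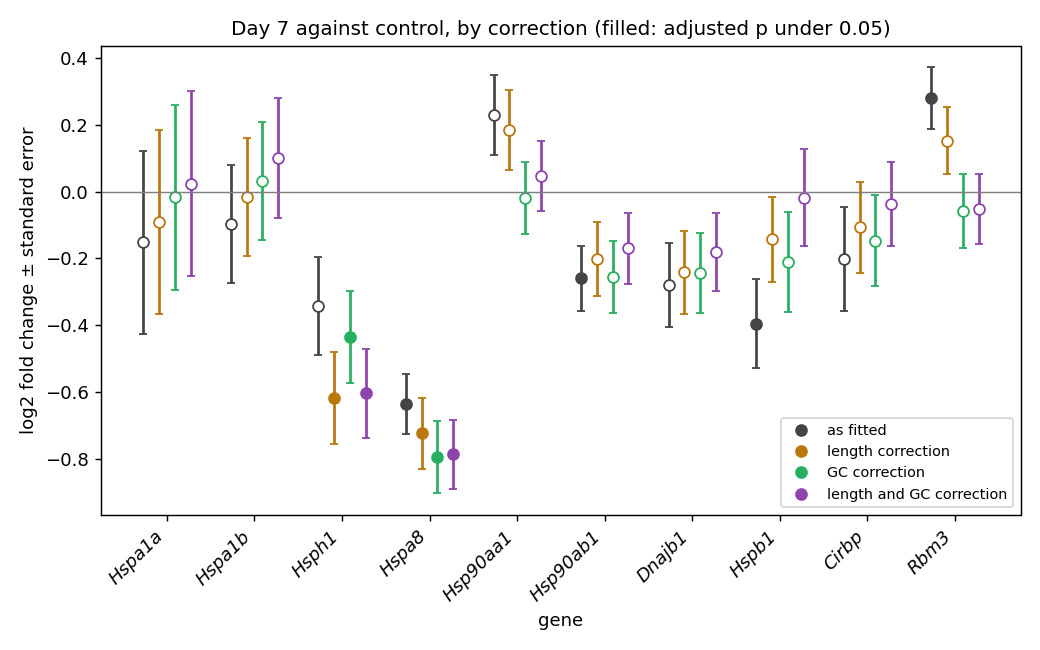
Log2 fold change with its standard error at day 7 against control (vertical axis) for the 10 genes, as fitted and after correcting each library for exonic length, GC content or both (colours), filled where the adjusted p was under 0.05. Hspa8 is filled throughout, Hsph1 only in the corrected fits, and Rbm3 and Hspb1 only as fitted.

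Markers of other cells were set beside these results. At day 7, 7 of the 8 tested acinar markers fell and 1 rose, and their sum was 251791 to 349789 CPM in controls, 233658 to 250407 at day 7 and 256283 to 281160 at day 14. Macrophage markers summed to 133 to 145 CPM in controls, 68.5 to 119 at day 7 and 183 to 227 at day 14. Endothelial markers, mostly Vwf, summed to 334 to 379 CPM in controls, 414 to 495 at day 7 and 397 to 434 at day 14. Fibroblast markers summed to 279 to 297 CPM in controls, 321 to 383 at day 7 and 315 to 387 at day 14. Markers of plasma cells, which carry a large load of secretory protein, summed to 1694 to 2480 CPM in controls, 1299 to 1417 at day 7 and 1270 to 2295 at day 14. Xbp1 made up most of this sum, at 1443, 1450 and 1370 CPM in controls and 1121, 1249 and 1260 at day 7. Igha spread widely within groups, at 172, 322 and 858 CPM in controls, 222, 11.5 and 65.9 at day 7 and 658, 761 and 29.4 at day 14. The sum is therefore not a measure of plasma cell content. The part of these shifts in the chaperone results was not tested. Skeletal muscle markers, a source of small heat shock proteins where muscle is cut with the gland, summed to between 4.41 and 8.94 CPM in every library, with Tnnc2 at 0 in all.

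The other genes of the chaperone system were taken from lists fixed with the members. The counts of each list at day 7 are to be read beside the 15.8% of all genes called higher and the 14.8% called lower, and the difference of any list from these shares was not tested. Both shares are of the fit without correction, which called 2419 genes higher and 2273 lower. With the length and GC correction these numbers were 1125 and 2259. HSP70 and HSP90 work through cochaperones, and of 22 tested 10 fell and 1 rose at day 7 (median −0.33, all genes 0.02). Stip1, which hands clients from HSP70 to HSP90, fell from 77.5 to 51.3 CPM (−0.59, SE 0.0995, edgeR adjusted p = 0.00026). Fkbp4, the HSP90-bound immunophilin of steroid receptors, fell from 224 to 150 CPM (−0.58), Stub1, the ubiquitin ligase CHIP, from 64.2 to 43.7 CPM (−0.55) and Bag1, an HSP70 nucleotide exchange factor, from 315 to 218 CPM (−0.53). The 1 that rose was Ppid (0.34), named after its value was seen. Over all alternatives 7 to 12 of the 22 fell and 0 to 2 rose. The Stip1, Fkbp4 and Stub1 calls held in all alternatives, and that of Bag1 was lost after the length and GC correction (−0.23, adjusted p = 0.0827).

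Of 6 heat shock factors and regulators, 2 fell at day 7 (median −0.30): Hsbp1, a small protein that binds the trimer of heat shock factor 1, from 91.5 to 61.9 CPM (−0.56, SE 0.096, edgeR adjusted p = 0.00031), and Hspbp1, an HSP70 cochaperone, from 28.2 to 18.6 CPM (−0.60). The Hspbp1 call was lost after the length and GC correction (−0.31). Hsf1 itself went from 39.4 to 32.1 CPM, a change of −0.29 that did not pass the threshold (edgeR adjusted p = 0.0563). Among the other HSP70 and HSP110 genes, edgeR called 0 of 7 tested (median 0.06), with 1 at an unadjusted p under 0.05. DESeq2 called 0 of these 7 and limma-voom 2, both higher.

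Of 14 J-domain proteins, 2 rose and 3 fell at day 7 (median −0.09), beside 15.8% and 14.8% of all genes. Dnajc8, a splicing-associated member, fell from 57.1 to 36.4 CPM (−0.65, SE 0.097, edgeR adjusted p = 0.0001), Dnajb2 from 78.3 to 52.4 CPM (−0.58) and Dnaja1, a heat-inducible partner of Hspa8, from 67.2 to 52.6 CPM (−0.35). Dnajc13, an endosomal member, rose from 22.9 to 31.9 CPM (0.48), a call lost after the length and GC correction (0.06) and without day 7 replicate 1. Dnaja4, named after its value was seen, rose from 17.8 to 23.4 CPM (0.39, edgeR adjusted p = 0.0415). The Dnaja1 call was lost without day 7 replicate 2. After the length and GC correction 1 rose and 6 fell.

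Small heat shock proteins other than Hspb1 had 5 of 9 genes tested, and 2 of them fell at day 7 (median −0.42). Hspb8, which works with Bag3 in removing misfolded proteins, fell from 233 to 138 CPM (−0.76, SE 0.090, edgeR adjusted p = 2.2e-05), and the call held in all alternatives. Cryab, alpha B crystallin, fell from 22.5 to 16.8 CPM (−0.42, edgeR adjusted p = 0.0394), and this was lost in 8 of 23 alternatives, among them without control replicate 1 or 2 and without day 7 replicate 2 or 3. With the length and GC correction Cryab stood at −0.14 (adjusted p = 0.55), and over all alternatives the list median ran from −0.62 to −0.05.

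Of 14 genes of the cytosolic chaperonin, which folds actin and tubulin, and of prefoldin, which feeds it, 7 fell at day 7 and 0 rose (median −0.25). The 7 were 4 prefoldin and 3 chaperonin subunits. The prefoldin subunits among them were Pfdn6, which fell from 37.2 to 20.3 CPM (−0.87, SE 0.121, edgeR adjusted p = 5.7e-05), Pfdn1 (−0.73), Pfdn2 (−0.67) and Pfdn5 (−0.59). Pfdn4 (−0.34, edgeR adjusted p = 0.241) and Vbp1 (−0.13, edgeR adjusted p = 0.467), the other prefoldin subunits, did not pass. The day 7 calls of the 4 held in all alternatives, over which 4 to 12 of the 14 fell.

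The organelle chaperones called at day 7 were lower, except for Hspa9. Of 9 mitochondrial chaperones, 4 fell and 1 rose at day 7 (median −0.08). Hspe1, the HSP10 lid of the mitochondrial chaperonin, fell from 59.5 to 34.3 CPM (−0.80, SE 0.104, edgeR adjusted p = 4.1e-05), while its partner Hspd1, HSP60, was at 112 and 106 CPM (−0.08, edgeR adjusted p = 0.595). Clpp, a protease subunit (−0.64), Grpel1, an exchange factor (−0.52), and Dnaja3 (−0.39) fell, and Hspa9, the mitochondrial HSP70, rose from 199 to 250 CPM (0.33). The Hspa9 call was lost in 7 alternatives, among them without control replicate 1 or 2 and without day 7 replicate 3, and the Clpp call after the length and GC correction (−0.29).

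Of 12 endoplasmic reticulum chaperones, 4 fell at day 7 and 0 rose (median −0.26). Calr, calreticulin, a lectin chaperone of glycoproteins, fell from 591 to 369 CPM (−0.68, SE 0.094, edgeR adjusted p = 5.7e-05). Pdia6, a disulfide isomerase (−0.49), Serpinh1, the collagen chaperone HSP47 (−0.44), and Dnajb11, a cofactor of BiP (−0.43), fell as well. Of these the Serpinh1 call was lost after the length and GC correction (−0.22). Hspa5, BiP itself, was at 519 and 398 CPM (−0.38, edgeR adjusted p = 0.0722). After the correction 7 of the 12 fell.

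**Figure D5:**
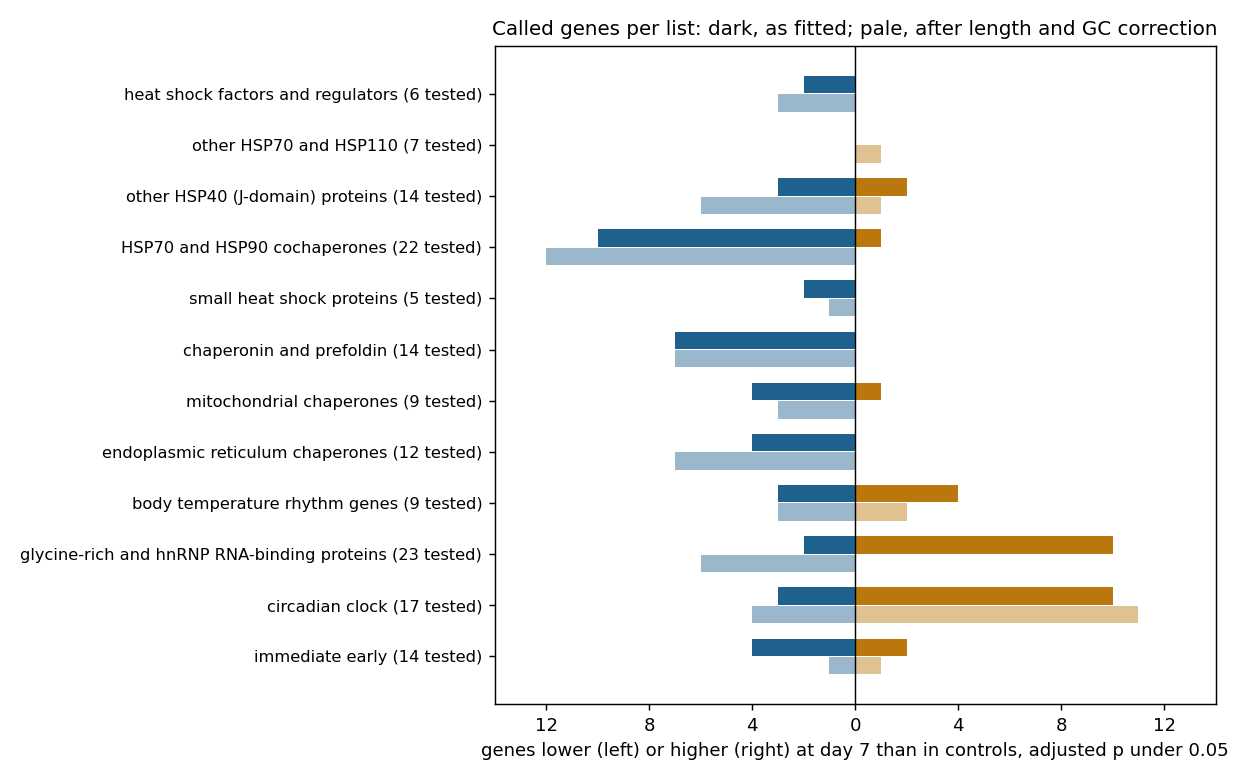
Number of genes of each list called lower (left) or higher (right) at day 7 than in controls (horizontal axis, adjusted p under 0.05), as fitted (dark) and after the length and GC correction (pale). Cochaperones had 10 lower and 1 higher as fitted and 12 lower and 0 higher after correction, whereas the glycine-rich and hnRNP list went from 10 higher and 2 lower to 0 higher and 6 lower.

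Temperature-linked RNA genes were given beside Cirbp and Rbm3. The body temperature rhythm list holds genes whose daily rhythm follows systemic cues such as temperature, and of 9 tested 4 rose and 3 fell at day 7 (median 0.24). Its median turned to −0.14 with the length and GC correction, with 2 higher and 3 lower, and over all alternatives 2 to 5 rose and 1 to 3 fell. Srsf2, a splicing factor, rose by 0.39, a call lost without control replicate 2, and the chaperones Stip1 and Dnaja1 of the same list fell. Of 23 glycine-rich and hnRNP RNA-binding proteins, relatives of Cirbp and Rbm3, 10 rose and 2 fell (median 0.17). Hnrnph1 rose from 148 to 215 CPM (0.53, edgeR adjusted p = 0.0013) and Hnrnpm from 163 to 205 CPM (0.33), whereas Hnrnpab fell from 205 to 152 CPM (−0.43). The direction of this list depended on the correction: after it 0 rose and 6 fell, and Hnrnph1 stood at 0.05 and Hnrnpm at 0.09. Calls of all genes moved with it too, from 2419 to 1125 higher and from 2273 to 2259 lower.

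The circadian clock drives much of the daily rhythm that Cirbp and Rbm3 follow, and of 17 clock genes 10 rose and 3 fell at day 7 (median 1.00). Arntl, the activator BMAL1, was at 12.1, 13.2 and 11.8 CPM in controls, 0.815, 1.21 and 1.13 at day 7 and 8.3, 10.4 and 9.16 at day 14. Dbp, a clock output factor that peaks opposite to Arntl, was at 75.3, 75.4 and 71.2 CPM in controls, 232, 266 and 183 at day 7 and 92.1, 74.9 and 67.2 at day 14. The day 7 libraries of both genes stood far from all others, with changes of −3.55 (SE 0.227, edgeR adjusted p = 3.2e-08) for Arntl and 1.62 (SE 0.131, edgeR adjusted p = 1.2e-06) for Dbp. Tef (1.31), Bhlhe40 (1.00) and Per2 (2.48) rose too. Over all alternatives 10 or 11 of the 17 rose and 3 or 4 fell. The hour at which glands were taken is not known here, and its part in the values of Hspa8, Rbm3 and Cirbp was not tested.

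At day 14, few genes of the 12 lists differed from the same controls. That comparison called 1.13% of all genes tested higher and 0.632% lower, and the difference of the lists from these shares was not tested. Of 148 different genes, 3 fell and 0 rose in edgeR (36 at an unadjusted p under 0.05): Clpp (−0.53, edgeR adjusted p = 0.033), Cry2 (−0.46, 0.0335) and Pfdn5 (−0.39, 0.0394). DESeq2 called 4 higher and 8 lower, and limma-voom 8 higher and 10 lower. Each of the 3 calls was lost when control replicate 1 or 2, or any of the day 14 replicates, was left out. Against day 7, 17 of the 148 were higher at day 14 and 12 were lower, beside 3.72% and 2.87% of all genes. Of the 17 clock genes among the 148, 4 were higher and 10 lower. Chaperones higher at day 14 than at day 7 included Calr (0.49, edgeR adjusted p = 0.0051), Pfdn6 (0.59, 0.0068), Hspb8 (0.45, 0.0065) and Dnajc8 (0.44, 0.0112), the last 2 not without day 7 replicate 2.

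Genes with the pattern most like each member over the 9 libraries were ranked by the root mean square difference of log2 CPM, each gene centred on its own mean, among 10071 genes at a mean of at least 5 CPM. Nearest to Hspa8 were Trappc4 (0.048), Lasp1 (0.051), Calr (0.056) and Bud31 (0.056), where Hspa8 itself varied by 0.284 about its mean. Their day 7 changes were −0.58, −0.69, −0.68 and −0.56. Nearest to Rbm3 were Herpud2 (0.066), Zfp526 (0.066), Slc41a1 (0.067) and Fbh1 (0.069), against a variation of 0.148 of Rbm3 itself. Nearest to Hsph1 were Msantd3 (0.073), Fem1a (0.095), Dnaja1 (0.096) and Calu (0.104), against 0.245. Nearest to Cirbp were Myg1 (0.079), Crtc2 (0.087), Mfsd13a (0.090) and Dgat1 (0.091), against 0.227.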

How the data were processed

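Each of the 9 libraries was deposited by the authors as raw counts per gene, whole numbers without normalisation. STAR, featureCounts, DESeq2 and the mm10 build are named per the submitters' processing notes. Their versions, the annotation and the strand setting: not given in the sources used here. Of 54532 gene IDs, 54495 matched a symbol. Coordinates are from GENCODE M21 (GRCm38).

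Counts were fitted with edgeR 4.0.16 in R 4.3.3: filterByExpr, TMM scaling, and a two-sided quasi-likelihood F test over all 9 libraries with 3 groups (6 residual degrees of freedom, biological coefficient of variation 16.1%). P-values were adjusted by Benjamini-Hochberg over the 15348 genes tested, with a threshold of 0.05 for a call. The script was tested on simulated data. No libraries of a group were duplicates (chi-square over degrees of freedom at least 9.19).

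The members and gene lists were chosen with earlier results of these data known. Lists are described by counts and medians. Named genes were all 10 members, up to 4 called genes of smallest p per list and comparison at a mean of at least 5 CPM, the 4 most alike genes of a member, and Arntl, Dbp and Fos. A gene that the rule takes is counted in its lists and is not reported here. Others named are some of the genes that a count of 5 or fewer refers to, and Hsf1, Hspd1 and Hspa5, chosen after their values were seen. Not every gene behind such a count is named.

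Alternatives were DESeq2 size factors, scaling without the 20 most abundant genes, other filters on low counts, DESeq2 1.42.0, sample-weighted limma-voom (limma 3.58.1), a fit of only the 6 libraries in a comparison, a replicate block, a correction of each library for exonic length and GC content (a spline of 5 degrees of freedom each), each library left out, and Hspa1a and Hspa1b summed. Corrections for length or GC content alone, and adding the counts of genes that share runs of 100 bases, were chosen after seeing the data.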

Additional observations from a re-analysis of the deposited data

Results flagged for a closer look

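The change at day 7 differed from that at day 14, both against the same 3 controls, for Hspa8 among the members and for 21 genes of the lists named here. The difference was tested directly as day 14 against day 7 (edgeR, adjusted p under 0.05), and log2 values above 0 mean higher at day 14. Of all genes tested, 3.72% were called higher and 2.87% lower in that comparison. Hspa8 differed by 0.51. Chaperone genes higher at day 14 were Pfdn6 (0.59), Pfdn2 (0.51), Calr (0.49), Hspe1 (0.46), Hspb8 (0.45), Dnajc8 (0.44), Stip1 (0.42), Dnaja1 (0.38), Serpinh1 (0.38) and Hsbp1 (0.36). Each of these except Calr and Pfdn6 lost the call in at least 1 alternative, and Pfdn2, Serpinh1, Dnaja1 and Hsbp1 lost it when any single day 7 or day 14 library was left out. Hspa9, mitochondrial HSP70, was lower (−0.37), a call lost in 8 alternatives, among them those without control replicate 2, any single day 7 replicate, or day 14 replicate 1 or 3. Among RNA-binding proteins Hnrnpab (0.37) and Hnrnpc (0.29) were higher, calls lost in 7 and 11 alternatives, for Hnrnpc when any single day 7 or day 14 library was left out and for Hnrnpab when any of these except day 14 replicate 3 was. Among clock genes Arntl (3.14) was higher and Per2 (−2.19), Ciart (−1.92), Dbp (−1.54), Tef (−1.04), Cry2 (−0.99) and Bhlhe40 (−0.51) were lower. Of the clock calls, that of Bhlhe40 was lost in 9 alternatives, among them those without control replicate 2, day 7 replicate 1 or 2, or day 14 replicate 1 or 3. That of Per2 was lost in 4, among them those without day 7 replicate 2 or day 14 replicate 2 or 3. The immediate early gene Jund was higher (0.63), a call lost when any single day 7 or day 14 library was left out and with the length correction alone.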

How the results depend on the processing

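Of the members' calls, the fall of Hspa8 at day 7 and its difference between day 14 and day 7 kept direction and side of the threshold in all 23 alternatives. Day 7 values of Rbm3 turned below 0 with the length and GC correction (−0.053), with the GC correction alone (−0.057) and with the replicate block plus both corrections (−0.044). The number of members that rose at day 7, 1, was 0 in those fits, with the length correction alone and with only the 6 libraries compared, and 0 to 1 with a library left out. The number that fell, 3, was 1 to 4 with a library left out. Members higher at day 14 than at control were 1 rather than 0 with limma-voom, and those higher than at day 7 were 2 rather than 1 with limma-voom, the length correction, both corrections, and both with the replicate block. Replicate numbers did not pair the libraries (same-numbered correlations −0.112 to 0.037), and the replicate block left Hspa8 at −0.64.

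Calls over all genes at day 7 (4692) ran from 3106 to 5314 with a library left out, the lowest without day 7 replicate 1. At day 14 the 270 calls were 1300 with no filter, 1042 with DESeq2, 1678 with limma-voom, 157 with only the 6 libraries, 113 with the replicate block, 147 with both corrections, 170 with the length correction, 121 with the block and both, and 13 (without control replicate 1) to 1937 (without control replicate 3) with a library left out. Between day 14 and day 7 the 1011 calls were 1874 with limma-voom and 330 (without day 7 replicate 2) to 1415 (without control replicate 3) with a library left out. The cause was not tested. Hspa1a had the fewest counts of the members, 52 to 117 a library.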

Other observations

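Immediate early genes, which respond within minutes to growth signals, stress and tissue handling, had 14 of 17 members tested, and 2 rose and 4 fell at day 7 (median 0.03, all genes 0.02). Egr1 rose from 4.15 to 8.03 CPM (0.95, SE 0.250, edgeR adjusted p = 0.0073), and its libraries were at 5.24, 3.91 and 3.28 CPM in controls, 8.8, 8.95 and 6.34 at day 7 and 8.65, 6.69 and 5.04 at day 14. Jund fell from 165 to 97.1 CPM (−0.77, edgeR adjusted p = 0.0028) and Ier2 from 40.9 to 25.4 CPM (−0.68, edgeR adjusted p = 0.006). Klf6 rose from 28.7 to 41.7 CPM (0.54, edgeR adjusted p = 0.0089). The calls of Ier2 and Klf6 were lost after the length and GC correction, and that of Klf6 also without control replicate 1 or day 7 replicate 1. Fos was at 0.924 CPM in controls and 1.92 CPM at day 7, a change of 1.03 that did not pass the threshold (edgeR adjusted p = 0.135). It was 1.79 without control replicate 3 (adjusted p = 0.0193), 0.68 without control replicate 2 and 1.55 with limma-voom (adjusted p = 0.0244). The summed level of the list was 466 to 572 CPM in controls, 391 to 520 at day 7 and 450 to 545 at day 14.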
